A study of Mus musculus with 14 samples.

Results

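Adult liver was compared with fetal liver in 4 of the 14 RNA-seq libraries of the study, 2 labelled Adult-Liver and 2 labelled Fetal-Liver. All 4 libraries carry the strain label C57BL/6J and no genetic change or treatment is named for them. The methods describe liver tissue of 6-week-old male mice and of embryos at E14.5 under the RT-PCR of the study. Livers of adult female C57BL/6J mice, with controls on standard chow, are described under the fibrosis model. No age or sex is given under the sequencing, and whether any of these tissues were sequenced is not stated. On E14.5 the mouse fetal liver is the main blood-forming organ. The other 10 libraries came from fibroblasts and from cultures of converted hepatic cells, and they are not compared here. Every description field reads replicate 1, the number of animals in a library is not stated, and nothing in the labels says that the 2 libraries of a group came from separate animals, so p-values measure the spread between these libraries and that spread may be technical. The compared features were all 14842 of 28022 genes in the count table whose log2(count + 1), averaged across the 4 libraries, reached 3, and 13180 genes fell below this filter, of which 7534 had no count in any of the 4.

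The total count was 34323473 and 35022256 in the adult libraries and 28673386 and 25364702 in the fetal ones. Libraries of 1 group differed by more than sampling noise: the chi-square statistic per gene was 3.51 between the adult libraries and 12.8 between the fetal ones, where sampling noise alone gives 1. The adult libraries held *Xist*, the RNA that coats the inactive X chromosome of female cells, at 14646 and 16368 counts, and no count of the Y-linked genes *Ddx3y*, *Eif2s3y*, *Kdm5d* and *Uty*. The male sex described for the RT-PCR tissue therefore does not match these libraries, and the libraries are called adult liver without a sex. The fetal libraries held *Xist* at 18478 and 26694 counts together with *Ddx3y* at 885 and 151, so both kinds of sex chromosome gene were counted in each fetal library. Heart and muscle genes were also counted in the fetal libraries and more in the second one, with the atrial myosin gene *Myh6* at 126 and 1923 counts and the cardiac actin gene *Actc1* at 843 and 2869, and neither had a count in adult liver. Sex and age cannot be told apart for any gene that differs between the sexes.

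**Figure D1:**
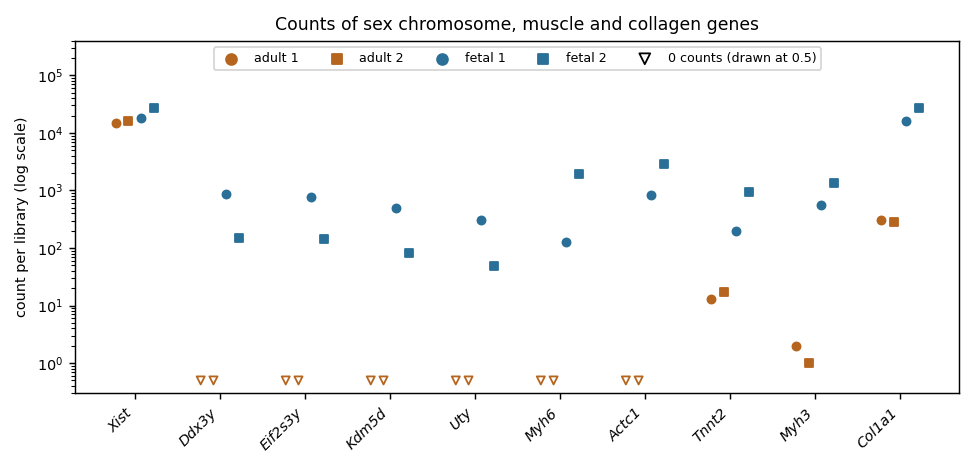
Counts per library (log scale) of *Xist*, 4 Y-linked genes, 4 muscle genes and the collagen gene *Col1a1* in the 2 adult and 2 fetal liver libraries, with open triangles for 0 counts. The Y-linked genes had counts only in fetal liver among these 4 libraries and were lower in fetal library 2, where the muscle genes and *Col1a1* were higher than in fetal library 1.

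In the embryo, the liver hosts blood formation while its epithelium consists of hepatoblasts, progenitors of hepatocytes and bile duct cells that already secrete plasma proteins. Blood formation later moves to the bone marrow, hepatocytes leave the cell cycle, and enzymes for nitrogen, glucose, bile acids and drugs are switched on around birth and weaning. Hepatocytes along the lobule then take on different tasks between the portal and the central vein.

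Of the tested genes, 5934 were higher in adult liver (40.0% of all tested) and 6399 were lower (43.1%) at an adjusted p under 0.05 in edgeR's quasi-likelihood test. A share of members called near these percentages is no more than the background of the comparison. The median log2 fold change over all tested genes was -0.09, and the median size among called genes was 1.46. A change of at least 1 on the log2 scale was found in 4010 genes that were higher and 4154 that were lower, and 605 and 529 genes passed a log2 fold change of 5. In 58 of the genes called higher both fetal libraries were at 0, and in 116 of those called lower both adult libraries were at 0. For these only a lower bound of the fold is given, computed with 3 counts in each empty library. In bulk tissue, fewer cells of a type and less RNA per cell cannot be told apart, which applies to every group of genes below.

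Secreted proteins took up a large part of the adult libraries. *Alb*, the gene of serum albumin, took 23.6% and 22.5% of all counts in the adult libraries and 1.34% and 1.06% in the fetal ones. The 10 most abundant genes of adult liver held 32.4% and 31.5% of its counts, and 76 and 83 genes held 50% of them, against 865 and 902 genes in fetal liver. TMM normalization, which assumes that most genes do not differ, gave 48.1% of the called genes as higher in adult liver. With total counts alone 18.8% of the called genes were higher, and the median log2 fold change moved by -1.43. Of all 14842 tested genes, 2536 were then called higher and 10970 lower, which is the background for list counts with total counts below. With the libraries scaled so that the median of 17 hepatocyte transcription factors was 0, 12.2% were higher, the median moved by -2.27, and 11.5% of all tested genes were called higher and 83.4% lower. Folds below refer to the TMM scale.

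**Figure D2:**
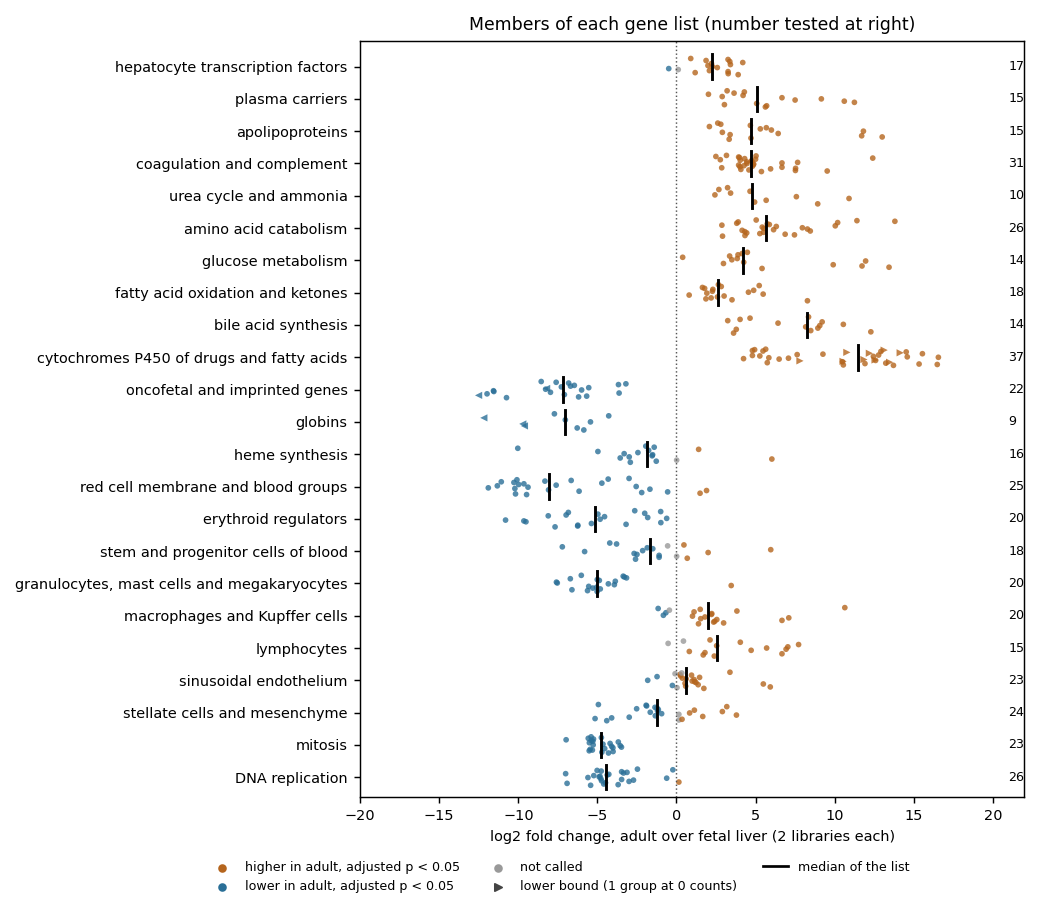
Log2 fold change of adult over fetal liver for each tested member of 23 gene lists, with a bar at the median of each list and triangles for lower bounds where 1 group had 0 counts. The lists of plasma proteins and of liver enzymes lay to the right of 0 with all their tested members, those of globins, erythroid regulators and mitosis lay to the left, and endothelial genes lay around 0.

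Plasma proteins are the main export of the hepatocyte. All 15 tested plasma carriers, all 15 apolipoproteins and related lipid genes, and all 31 genes of coagulation and complement were higher in adult liver, with median log2 fold changes of 5.07, 4.71 and 4.74. *Alb* (chr5:90460897-90476602 in GRCm38, plus strand) had 8113083 and 7888792 counts in adult liver and 384483 and 268280 in fetal liver. It was 52.0-fold higher in adult liver, a log2 fold change of 5.70 ± 0.19 (SE, edgeR adjusted p = 1.83e-08). *Afp*, the gene of alpha-fetoprotein and the fetal relative of albumin, lies next to it at chr5:90490737-90508907 and had 105 and 107 counts in adult liver and 432944 and 336523 in fetal liver. It fell by 10.75 on the log2 scale (SE 0.15, edgeR adjusted p = 2.34e-10). Per kilobase of exon, the level of *Alb* in fetal liver was 3120 CPM and that of *Afp* 2560 CPM, and *Alb* made up 56.1% and 53.4% of the pair there and 100% in adult liver after rounding.

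The bases before the starts of these neighbours are shown because the pair lies side by side and moved in opposite directions. They are the 250 bases upstream of each RefSeq start in GRCm38.p6, 5′ to 3′ on the plus strand, with the letters GTTAAT bound by the hepatocyte factor HNF1 in capitals where they occur on either strand.
Alb, chr5:90460620-90460869: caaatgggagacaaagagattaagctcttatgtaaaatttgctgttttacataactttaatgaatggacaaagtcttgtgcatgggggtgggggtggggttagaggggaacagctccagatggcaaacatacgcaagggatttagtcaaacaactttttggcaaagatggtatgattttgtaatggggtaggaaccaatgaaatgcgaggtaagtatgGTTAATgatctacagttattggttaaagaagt
Afp, chr5:90490464-90490713: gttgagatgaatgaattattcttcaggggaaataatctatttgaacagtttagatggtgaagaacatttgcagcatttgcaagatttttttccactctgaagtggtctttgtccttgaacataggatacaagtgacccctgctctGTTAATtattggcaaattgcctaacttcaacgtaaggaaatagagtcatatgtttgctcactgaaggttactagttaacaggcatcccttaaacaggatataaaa
The site began 32 bases before the RefSeq start of *Alb* and 105 bases before that of *Afp*. These starts lie upstream of the first bases of the gene coordinates given above, which follow GENCODE annotation. Over windows from 250 bases before to 50 bases after a start, 7.10% of 32851 promoters held these letters, 29.4% of the 17 promoters found for 11 of the plasma carriers and 28.0% of the 25 found for 24 coagulation and complement genes. Among promoters of tested genes the share was 4.94%. It was 13.9% for cytochromes P450, 11.8% for apolipoproteins and 11.1% for mitosis genes, 3 of the 23 windows of oncofetal genes held it, and the 5 lists of globins, red cell membrane, erythroid regulators, heme synthesis and DNA replication held no match. Letters of HNF4, C/EBP and TATA sites were searched as well. Among the lists, the HNF4 letters matched in cytochromes P450 alone, at 11.1% against 0.475% of all windows, and in no plasma protein list. The C/EBP letters were in 41.2% of plasma carrier windows, 11.8% of apolipoprotein windows and 10.8% of all. TATAAA was in 47.2% of cytochrome P450 windows, 8.0% of coagulation and complement windows and 13.6% of all. A match is a description of the sequence and was not tested for function.

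Within the plasma proteins the size of the difference ranged widely. *Gc*, the vitamin D-binding protein, had 285278 and 289972 counts in adult liver and 4102 and 2647 in fetal liver and was 181-fold higher. Ceruloplasmin (*Cp*), the copper carrier of plasma, had 137505 and 141323 counts against 154 and 88 and was 2430-fold higher (log2 fold change 11.25 ± 0.19). Haptoglobin (*Hp*), which binds free hemoglobin, had 104920 and 103779 counts against 418 and 349, and hemopexin (*Hpx*), which binds free heme, had 208753 and 209076 against 4869 and 3791. Transthyretin (*Ttr*) and retinol-binding protein (*Rbp4*) travel together in plasma and were higher by 9.20-fold and 7.42-fold. Of the apolipoproteins, *Apoa1* of high-density lipoprotein was 10.1-fold and *Apob* of the particles that carry triglycerides 10.5-fold higher in adult liver. *Apoc3*, an inhibitor of triglyceride clearance, rose from 34 and 28 counts to 53208 and 54148 and was 3630-fold higher, while *Apoa5*, which promotes that clearance, rose from 15 and 5 to 15938 and 16466 counts. In every gene named here both adult libraries were above both fetal ones, but the groups did not overlap in 92.1% of all tested genes.

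The clotting factors are made by hepatocytes and act in sequence. Prothrombin (*F2*) was 29.4-fold higher, and the 3 chains of fibrinogen, *Fga*, *Fgb* and *Fgg*, were 21.7-fold, 27.2-fold and 26.8-fold higher, with fetal counts between 5765 and 15235. Factor VII (*F7*) was 102-fold and factor IX (*F9*) 202-fold higher. Among complement genes, *C3*, the central component, was 41.4-fold higher and *C4b* 741-fold higher. *Mbl2*, a lectin that starts complement activation on microbes, had 35524 and 35107 counts in adult liver and 17 and 10 in fetal liver, and its log2 fold change of 12.41 ± 0.14 was the largest of this list. Of the 16 acute phase genes, whose products rise in inflammation, all were higher, with a median of 8.67. *Orm1*, the alpha-1-acid glycoprotein, had 45245 and 46828 counts in adult liver and 1 and 0 in fetal liver, a ratio of 194000 with a counting interval of 34800 to 7650000. *Hamp*, the gene of the iron hormone hepcidin, rose from 8 and 5 counts to 10134 and 10766, and *Hamp2* from 0 and 0 to 8155 and 8944, at least 5980-fold.

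**Figure D3:**
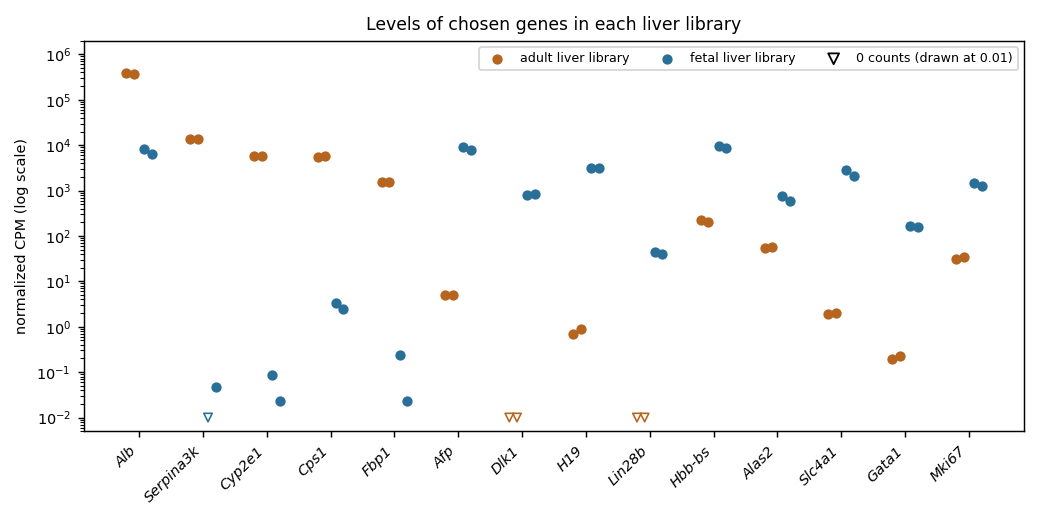
Normalized CPM (log scale) of 14 genes in each adult and fetal liver library, with open triangles for 0 counts. The 5 hepatocyte genes at the left are above fetal liver in both adult libraries, and the 9 genes from *Afp* to *Mki67* are above adult liver in both fetal libraries.

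The largest fitted log2 fold change among the genes that rose was that of *Serpina3k* (chr12:104338486-104346144, plus strand), a serine protease inhibitor of plasma, with 289870 and 292229 counts in adult liver and 0 and 2 in fetal liver. The ratio was 612000, with a counting interval of 170000 to 5060000, and its exons overlap those of its neighbour *Serpina3m*, so how reads were split between them is uncertain. In the ranking by fitted value it was followed by *Cyp3a44*, *Mup3*, *A1bg*, *Cyp2c29*, *Ces3b*, *Cyp4f14*, *Orm1*, *Mug2* and *Cyp2c50*, of which 6 had no count in either fetal library. With 0 to 2 fetal counts the counting intervals of *Serpina3k*, *Mup3* and *A1bg* overlap, so the order among these genes is not determined. *Ces3b*, a carboxylesterase, had 15666 and 16492 counts in adult liver and was at least 11200-fold higher. Of 18 tested genes of the serpin clade A, a list chosen after its values were seen, 17 were higher, and the whole list took 4.22% and 4.17% of the adult counts. *Serpina6*, the corticosteroid carrier of plasma, was already at 57049 and 45637 counts in fetal liver and was 18.5-fold higher in adult liver.

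Transcription factors of the hepatocyte direct its gene expression in general, and their part in the differences above was not tested. Of 17, 15 were higher in adult liver and 1 was lower, with a median log2 fold change of 2.27 on the TMM scale, 0.84 with total counts and, by construction, 0 when scaled to these factors, where 8 were higher and 6 lower. *Hnf4a*, a nuclear receptor that directs hepatocyte identity, had 17574 and 18806 counts in adult and 4032 and 3179 in fetal liver and was 10.6-fold higher (log2 fold change 3.41 ± 0.09, edgeR adjusted p = 3.20e-09). *Cebpa*, which restrains growth and activates metabolic genes, was 14.9-fold higher, and *Onecut1*, a factor of hepatoblasts and bile ducts, was 18.2-fold higher. *Gata6*, needed for the liver bud, was 1.41-fold lower, and *Gata4* with 557 and 620 against 1083 and 1198 counts did not pass (log2 fold change 0.11 ± 0.11, edgeR adjusted p = 0.351). With total counts 13 of these factors were higher and 3 lower. Of 13 postnatal repressors and nuclear receptors, 12 were higher, with a median of 4.63. *Zhx2* and *Zbtb20*, repressors of *Afp* after birth, were 6.99-fold and 24.7-fold higher. The constitutive androstane receptor *Nr1i3*, a sensor of drugs, rose from 5 and 3 to 984 and 1124 counts and was 532-fold higher. The estrogen receptor *Esr1* was 319-fold and the bile acid receptor *Nr1h4* 47.1-fold higher.

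The urea cycle and amino acid breakdown dispose of nitrogen. All 10 genes of the urea cycle and ammonia handling and all 26 of amino acid catabolism were higher, with medians of 4.80 and 5.63. *Cps1* (chr1:67123026-67231259), the first enzyme of the urea cycle, had 116083 and 122899 counts in adult liver and 157 and 104 in fetal liver and was 1930-fold higher (log2 fold change 10.91 ± 0.16). The transporter *Slc25a13* at 6.42-fold and the glutamine synthetase gene *Glul* at 5.39-fold were at the low end, with 7944 and 6668 counts of *Glul* in fetal liver. Tyrosine aminotransferase (*Tat*), induced around birth, had 64505 and 67631 counts in adult and 8 and 11 in fetal liver, and its 14400-fold difference was the largest among the amino acid genes. Tryptophan dioxygenase (*Tdo2*) was 2710-fold higher.

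Adult liver makes, stores and releases glucose between meals. All 14 tested genes were higher, with a median of 4.20. The fructose bisphosphatase *Fbp1* had 32028 and 33039 counts against 11 and 1, and *Pck1*, which feeds gluconeogenesis, had 31263 and 33626 against 26 and 8. The catalytic subunit of glucose-6-phosphatase, *G6pc*, which releases glucose into blood, had 834 and 781 counts against 0 and 1. The pyruvate kinase gene *Pklr*, which the red cell lineage also uses, was the exception in size, with 8725 and 9184 counts against 16160 and 12752 and a log2 fold change of 0.39 ± 0.08 (edgeR adjusted p = 0.00171), and it was lower in adult liver with total counts and with the transcription factor scaling. All 18 tested genes of fatty acid oxidation and ketone formation were higher, with a median of 2.62. *Cpt1a*, which admits fatty acids to mitochondria, was 23.5-fold higher. When scaled to the hepatocyte transcription factors, 10 of the 18 were higher and 5 lower, whereas all 26 genes of amino acid catabolism and all 10 of the urea cycle were still higher.

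Related genes with a shared function were compared in 16 pairs, most of them enzymes, beside a glucose transporter, the albumin family, growth factors and lamins. The first gene is one used in adult liver, whether or not other tissues share it, and the second is one of fetal, dividing or other cells. The first gene was higher in adult liver in 13 pairs and the second lower in 15, and both held in 12. Per kilobase, the methionine adenosyltransferase *Mat1a* made up 98.7% and 98.6% of its level with *Mat2a* in adult liver and 4.65% and 2.91% in fetal liver. The glucose transporter *Slc2a2* had 95.6% and 94.9% of the pair with *Slc2a1* in adult and 4.66% and 5.27% in fetal liver. For the first step of heme synthesis, *Alas1*, the form of all tissues, had 92.0% in each adult library and 1.31% and 1.67% in the fetal ones, where *Alas2* of the red cell lineage held the rest. The exceptions were *Lmna*, lower in adult liver although its share over *Lmnb1* was larger, *Hmgcs1* of cholesterol synthesis, 3.88-fold higher in adult liver but lower when scaled to the transcription factors, and *Ldha* and *Ezh1*, which did not pass with edgeR adjusted p of 0.0527 and 0.0512.

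**Figure D4:**
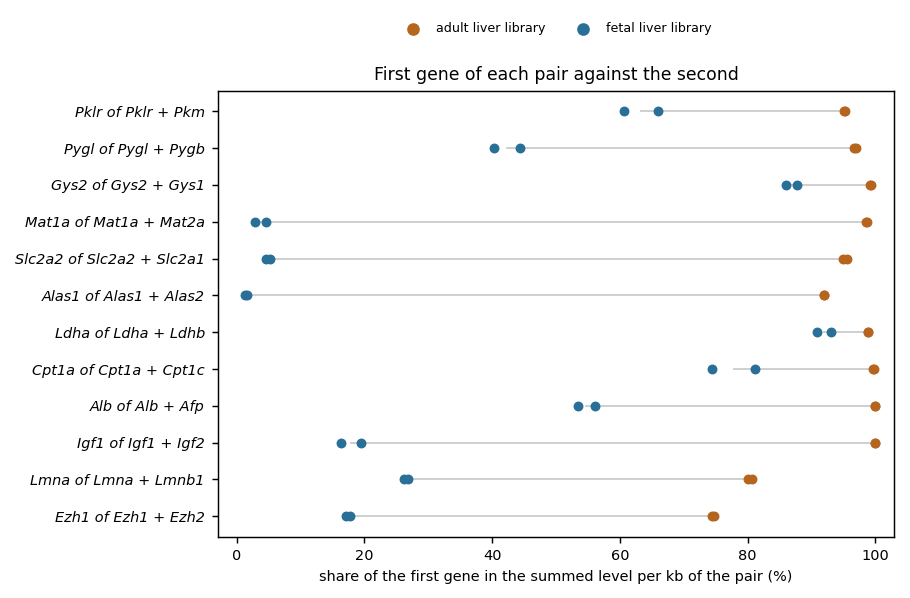
Share of the first gene in the summed level per kilobase of exon of each pair, in percent, with 1 point per library and a grey line between the group means for 12 of the 16 pairs. The adult libraries lie to the right of the fetal libraries in every pair shown, at 74.4% or more, and the fetal libraries range from 1.31% to 93.0%.

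Bile acids are made from cholesterol by hepatocytes. All 14 tested genes were higher in adult liver, with a median of 8.26. *Cyp7a1*, the rate-limiting enzyme, had 11642 and 11439 counts in adult liver and 18 and 14 in fetal liver and was 1500-fold higher (log2 fold change 10.55 ± 0.12, edgeR adjusted p = 1.48e-10). *Cyp8b1*, which sets the share of cholic acid, was 591-fold and the conjugating enzyme *Baat* 492-fold higher. The peroxisomal steps shared with fatty acids, *Hsd17b4* and *Acox2*, were 9.44-fold and 12.2-fold higher. Of 17 transporters of bile acids and organic ions, 16 were higher and *Abcg2*, which also serves the red cell lineage, was 2.43-fold lower. *Slc10a1*, the uptake carrier of bile acids, had 20383 and 20697 counts against 46 and 21, and *Abcb11*, the export pump, had 12643 and 13341 against 376 and 281. The folds were 1290 for uptake and 83.4 for export.

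Cytochromes P450 oxidize drugs, fatty acids and steroids. All 37 tested genes were higher, with a median log2 fold change of 12.51, or 11.50 with the genes absent in fetal liver at their bound. Together they held 1.91% and 1.94% of the adult counts and 0.0111% and 0.00968% of the fetal ones. *Cyp2e1* (chr7:140763739-140774987), which oxidizes ethanol, had 120045 and 124762 counts in adult liver and 4 and 1 in fetal liver. *Cyp1a2*, which oxidizes caffeine, had 16614 and 17536 against 4 and 1, and *Cyp3a11*, a major drug oxidase, 43920 and 43902 against 20 and 6. The nearest to fetal liver was *Cyp2d22*, with 686 and 627 fetal counts and an 18.9-fold difference. Of 36 conjugating enzymes, all were higher, with a median of 6.17, from *Nat2* at 2.38-fold, below 0 on the log2 scale with total counts and with the transcription factor scaling, to *Ugt2a3*, with 10943 and 10618 counts against 0 and 2. Many of these genes have close paralogs, and the treatment of reads that fit several of them is not stated, so values of single paralogs are uncertain.

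Many hepatic enzymes differ between the sexes in adult mice. All 19 genes listed as higher in females were higher than in fetal liver, and 18 of them when scaled to the transcription factors. *A1bg* had 74478 and 76632 counts against 0 and 1 and *Cyp2b9* 11237 and 11671 against 2 and 3. Of the 14 genes listed as higher in males, 11 were tested and all 11 were higher than in fetal liver, but the male-specific *Cyp4a12a* and *Cyp4a12b* had 2 and 4, and 1 and 0 counts in adult liver. *Serpina1e* had 199277 and 204510 counts in adult liver and *Mup20* 455 and 525. The major urinary proteins, a list chosen after its values were seen, had 14 tested members, all higher and 13 of them without a fetal count, led by *Mup3* with 78586 and 78405 counts against 0 and 1.

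Growth hormone acts on the liver after birth. Of 16 tested genes of the growth hormone axis, 11 were higher and 3 lower, against 10 and 6 with total counts and 9 and 7 when scaled to the transcription factors. The receptor *Ghr* was 75.3-fold higher (49751 and 49979 counts against 1411 and 1371), and *Igf1*, the growth factor it induces, was 36.0-fold higher (20705 and 20362 against 1094 and 1292). *Igfals*, which stabilizes *Igf1* protein in blood, was 88.1-fold and the prolactin receptor *Prlr* 6320-fold higher. *Irs2*, an adaptor of the insulin receptor, was 3.55-fold lower and *Igfbp3* 1.52-fold lower. Of 16 iron genes, 11 were higher and 4 lower, with a median of 1.91, whereas 7 were higher and 8 lower with a median of -0.35 when scaled to the transcription factors. Besides *Hamp*, its activator *Hjv* and *Tmprss6*, a brake on it, were 22.7-fold and 33.4-fold higher. The transferrin receptor *Tfrc*, through which erythroblasts take up iron, was 6.35-fold lower, and *Erfe*, the erythroblast hormone that lowers hepcidin, had 1 and 0 counts in adult liver and 320 and 256 in fetal liver.

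Oncofetal and imprinted genes are active before birth, and some of them again in some liver cancers. All 22 tested members were lower, with a median log2 fold change of -7.18. They held 2.79% and 2.64% of the fetal counts and 0.00545% and 0.00555% of the adult ones. *Dlk1* (chr12:109452823-109463336), a membrane protein of hepatoblasts, had no count in adult liver and 38125 and 35753 in fetal liver, at least 5850-fold lower, and headed the ranking of all genes that fell. The RNA-binding protein *Lin28b*, which blocks let-7 microRNA, had 0 and 0 counts against 2107 and 1658. *Gpc3*, a heparan sulfate proteoglycan, was 136-fold and the chromatin protein gene *Hmga2* 250-fold lower. *H19* (chr7:142575529-142578143), a maternally expressed RNA, had 14 and 19 counts in adult and 149262 and 132415 in fetal liver and fell by 11.98 on the log2 scale (SE 0.14). Its paternally expressed neighbour *Igf2*, a fetal growth factor, had only 0 and 1 counts in adult and 3221 and 3093 in fetal liver, a ratio of 3000 with a counting interval of 538 to 119000. Exons of *Igf2* overlap those of 2 other annotated genes, among them *Igf2os* on the opposite strand with 368 and 336 fetal counts, and the treatment of strand and of overlapping genes is not stated, so the fetal level of *Igf2* is uncertain. From the locus of *Dlk1*, the maternal RNAs *Meg3* and *Rian* were 155-fold and 195-fold lower. *Igf2bp1* and *Igf2bp3*, RNA-binding proteins of the embryo, had at most 3 counts in an adult library and at least 1225 in a fetal one.

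The globins, which carry oxygen in red cells, were lower in adult liver in all 9 tested members, with a median of -7.03, and took 3.76% and 3.84% of the fetal counts against 0.0243% and 0.0226% of the adult ones. *Hbb-bs*, an adult-type beta globin, had 4568 and 4409 counts in adult liver and 454653 and 370893 in fetal liver, where it was the most abundant gene by CPM. It fell by 5.44 on the log2 scale (SE 0.11, edgeR adjusted p = 9.65e-10). *Hba-a1*, an adult-type alpha globin, was 58.2-fold lower. The embryonic globins of yolk sac red cells had no count in adult liver but were present in fetal liver, with *Hbb-y* at 27194 and 31152, *Hbb-bh1* at 5460 and 5179 and *Hba-x* at 4303 and 5521 counts. They were therefore at least 4650-fold, 843-fold and 785-fold lower in adult liver. Close copies such as *Hba-a1* and *Hba-a2* may share reads.

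The 250 bases before the RefSeq start of the most abundant fetal gene are shown with a CACCC box (CCACACCC) and a CCAAT box in capitals, which began 93 and 76 bases before the start. The gene is on the minus strand and the bases are written in its direction, GRCm38.p6.
Hbb-bs, chr7:103827929-103828178: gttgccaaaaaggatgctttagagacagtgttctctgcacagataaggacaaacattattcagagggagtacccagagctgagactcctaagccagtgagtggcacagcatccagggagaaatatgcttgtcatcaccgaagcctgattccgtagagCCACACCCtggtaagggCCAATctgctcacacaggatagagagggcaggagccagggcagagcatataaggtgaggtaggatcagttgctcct
A CCACACCC match on either strand was found in 3.56% of all 300-base promoter windows and, among the 9 globin windows, in that of *Hbb-bs* alone. The letters AGATAA of a GATA site were in 11.2% of all windows, 26.3% of the 19 windows of red cell membrane genes and 23.1% of the 26 windows of erythroid regulators. They were also in 22.2% of the 9 globin windows, 11.1% of the 18 windows of heme synthesis genes, 17.6% of the 17 of plasma carriers and 13.9% of the 36 of cytochromes P450, and in 7.00% of the windows of all tested genes.

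The red cell membrane is built late in the lineage. Of 25 tested genes of the red cell membrane and blood groups, 23 were lower, with a median of -8.09. *Slc4a1* (chr11:102348824-102366203), the anion exchanger band 3, had 40 and 43 counts in adult liver and 129084 and 90166 in fetal liver and was 1240-fold lower. *Ermap* and the blood group gene *Kel* were 3830-fold and 2570-fold lower, and the spectrin gene *Sptb* 321-fold. The water channel *Aqp1* and the complement inhibitor *Cd59a*, which are also found outside the blood, were 2.81-fold and 3.73-fold higher in adult liver, and lower when scaled to the transcription factors, and *Aqp1* was not called with total counts. Of 16 genes of heme synthesis and its carriers, 13 were lower and 2 higher. *Alas2* was 11.8-fold lower and the mitochondrial iron carrier *Slc25a37* 31.3-fold lower, while *Alas1*, which supplies heme for cytochromes P450, was 65.2-fold higher.

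All 20 erythroid regulators were lower, with a median of -5.18. *Gata1* (chrX:7959260-7978071), the master factor of the lineage, had 4 and 5 counts in adult liver and 7591 and 6557 in fetal liver and was 733-fold lower (log2 fold change -9.52 ± 0.13, edgeR adjusted p = 2.06e-10). *Klf1*, which binds CACCC boxes of globin genes, was 28.4-fold lower and the erythropoietin receptor *Epor* 41.7-fold lower. *Bcl11a*, a repressor of embryonic globins, had 2 and 9 counts against 2683 and 2146. The smallest changes of the list were in *Foxo3* and *Klf3*, 1.98-fold and 1.54-fold lower.

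Blood stem and progenitor cells reside in the fetal liver. Of 18 tested, 12 were lower and 4 higher, with a median of -1.68, and 16 and 2 with total counts. *Kit*, the stem cell factor receptor, had 183 and 239 counts in adult and 2217 and 1718 in fetal liver and was 4.42-fold lower, and *Runx1*, which starts definitive blood formation, was 13.8-fold lower. Among those higher, *Hlf* at 4.00-fold, but lower when scaled to the transcription factors, is also a clock-controlled factor of hepatocytes, and *Ly6a* with 664 and 705 against 22 and 24 counts is also expressed by endothelium. Of 20 genes of granulocytes, mast cells and megakaryocytes, 19 were lower, with a median of -5.02. Myeloperoxidase (*Mpo*) was 187-fold lower, the platelet chemokine *Pf4* 29.4-fold lower and the platelet integrin *Itga2b* 15.2-fold lower. *Gzmb*, a granzyme of cytotoxic cells, was the only member called higher, at 23 and 31 counts against 4 and 6.

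Of 20 tested macrophage and Kupffer cell genes, 16 were higher and 3 lower, with a median of 2.00 on the TMM scale, 0.57 with total counts and -0.27 when scaled to the transcription factors, where 5 were higher and 10 lower. Kupffer cells are the resident macrophages of liver. *Clec4f*, a lectin of Kupffer cells, had 7251 and 7417 counts in adult and 117 and 107 in fetal liver and was 138-fold higher (log2 fold change 7.10 ± 0.08, edgeR adjusted p = 1.48e-10). *Vsig4*, a complement receptor, had 1888 and 1905 counts against 2 and 3, and the hemoglobin receptor *Cd163* 617 and 657 against 15 and 11. *Adgre1* and *Csf1r*, shared by macrophages of many tissues, were 2.62-fold and 3.47-fold higher, and both were lower when scaled to the transcription factors. *Vcam1*, *Hmox1* and *Marco* were 2.23-fold, 1.78-fold and 1.59-fold lower. Of 15 tested lymphocyte and antigen presentation genes, 13 were higher and none was lower on the TMM scale, against 9 and 3 with total counts and 7 and 3 when scaled to the transcription factors. Those higher included *Igkc* with 466 and 472 counts against 2 and 7 and *Cd74* with 2299 and 2464 against 55 and 43. The defining T cell genes *Cd3e* and *Cd8a* had at most 15 counts in a library and were not tested.

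The liver also holds endothelium, vitamin A-storing stellate cells and bile ducts. Of 23 tested genes of the sinusoidal endothelium, 17 were higher and 3 lower, with a median of 0.61. With total counts 3 were higher and 17 lower with a median of -0.82, but 10970 of all 14842 tested genes were lower on that scale. *Clec4g*, a lectin of mature sinusoids, had 1765 and 1803 counts against 64 and 59 and was 60.9-fold higher, and the Fc receptor *Fcgr2b* was 45.1-fold higher. *Lyve1*, a hyaluronan receptor, was 3.52-fold lower. Of 24 stellate cell and mesenchymal genes, 15 were lower and 7 higher. *Col1a1* of fibrillar collagen had 309 and 279 counts in adult and 16349 and 26916 in fetal liver and was 35.4-fold lower, and it was higher in the fetal library with more heart and muscle counts, whose part in the result was not tested. *Lrat*, which stores vitamin A in stellate cells, was 7.47-fold higher, *Ecm1* 13.9-fold higher and the mesothelial factor *Wt1* 30.6-fold lower. Of 13 bile duct genes, 5 were higher and 4 lower, whereas 3 were higher and 8 lower with total counts and 2 and 8 when scaled to the transcription factors. *Spp1*, osteopontin, was 39.3-fold higher, whereas *Krt19*, a keratin of ducts and of hepatoblasts, had 138 and 154 counts against 354 and 346 and did not pass (edgeR adjusted p = 0.227), but was called lower with upper quartile factors, total counts and the transcription factor scaling.

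Hepatoblasts and blood precursors divide, whereas adult hepatocytes rarely do. All 23 tested genes of mitosis were lower in adult liver, with a median of -4.75, and so were 25 of 26 genes of DNA replication, with a median of -4.43. *Mki67* (chr7:135689784-135716361), a marker of dividing cells, had 649 and 742 counts in adult and 69748 and 53088 in fetal liver and was 41.8-fold lower (log2 fold change -5.39 ± 0.12, edgeR adjusted p = 1.38e-09). The mitotic kinase *Cdk1* was 17.2-fold and its partner cyclin *Ccnb2* 16.2-fold lower. Of the helicase that opens DNA at origins, *Mcm2* to *Mcm7* were 19.4-fold to 48.5-fold lower, and the licensing factors *Cdc6* and *Orc1* 121-fold and 129-fold. *Mcm10* was 1.54-fold lower, and *Tk1* was 1.17-fold lower, a call that was lost without either adult library and in the DESeq2 Wald test.

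Upstream bases of 3 of these genes are shown because CCAAT boxes and E2F sites recur in them. They are the 250 bases before the RefSeq start in GRCm38.p6 in the direction of the gene, with CCAAT (or ATTGG on the other strand) in capitals in *Cdk1* (minus strand) and *Ccnb2* (minus strand), and the E2F letters TTNGCGC on either strand in capitals in *Mcm5* (plus strand), where neighbouring matches overlap.
Cdk1, chr10:69352913-69353162: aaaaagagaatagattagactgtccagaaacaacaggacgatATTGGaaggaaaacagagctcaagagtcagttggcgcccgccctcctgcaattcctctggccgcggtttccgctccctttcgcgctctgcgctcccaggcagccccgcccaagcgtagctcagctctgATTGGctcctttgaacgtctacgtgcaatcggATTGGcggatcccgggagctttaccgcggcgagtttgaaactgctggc
Ccnb2, chr9:70421555-70421804: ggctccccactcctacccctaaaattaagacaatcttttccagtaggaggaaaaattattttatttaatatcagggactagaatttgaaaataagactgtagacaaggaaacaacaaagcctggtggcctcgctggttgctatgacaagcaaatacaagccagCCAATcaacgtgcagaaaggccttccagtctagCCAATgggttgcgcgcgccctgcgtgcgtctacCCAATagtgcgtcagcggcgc
Mcm5, chr8:75109259-75109508: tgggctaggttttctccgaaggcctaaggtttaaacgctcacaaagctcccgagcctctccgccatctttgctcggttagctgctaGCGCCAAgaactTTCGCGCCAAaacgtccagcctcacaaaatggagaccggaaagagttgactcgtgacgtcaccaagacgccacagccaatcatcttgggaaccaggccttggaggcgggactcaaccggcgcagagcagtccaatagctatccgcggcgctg
Each of these windows held 3 matches. CCAAT was found in 88.9% of the 18 windows of mitosis genes and in 37.4% of all windows, and the E2F letters in 41.7% of the 24 windows of DNA replication genes and in 6.36% of all. Among the 14650 windows of tested genes alone, CCAAT was in 37.3% and the E2F letters in 1471 windows. CCAAT was also in 77.8% of the globin windows, 57.9% of those of the red cell membrane and 54.2% of those of DNA replication. It was in 52.9% of those of plasma carriers and 52.8% of those of cytochromes P450, and all other lists searched lay between 24.0% and 38.5%. The E2F letters were in 19.2% of the windows of erythroid regulators and 16.7% of those of mitosis genes. In adult liver *Mcm5* had 162 and 181 counts, against 14600 and 12486 in fetal liver.

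Of 16 genes of chromatin and DNA methylation, 14 were lower and 1 higher. The maintenance methyltransferase *Dnmt1* was 18.2-fold and its partner *Uhrf1* 96.4-fold lower, and *Ezh2* of the Polycomb complex was 12.1-fold lower. Of 80 tested cytosolic ribosomal protein genes, a list chosen after its values were seen, 71 were lower and 2 higher, with a median of -0.54. They took 1.61% and 1.58% of the adult counts and 6.12% and 6.60% of the fetal ones.

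**Figure D5:**
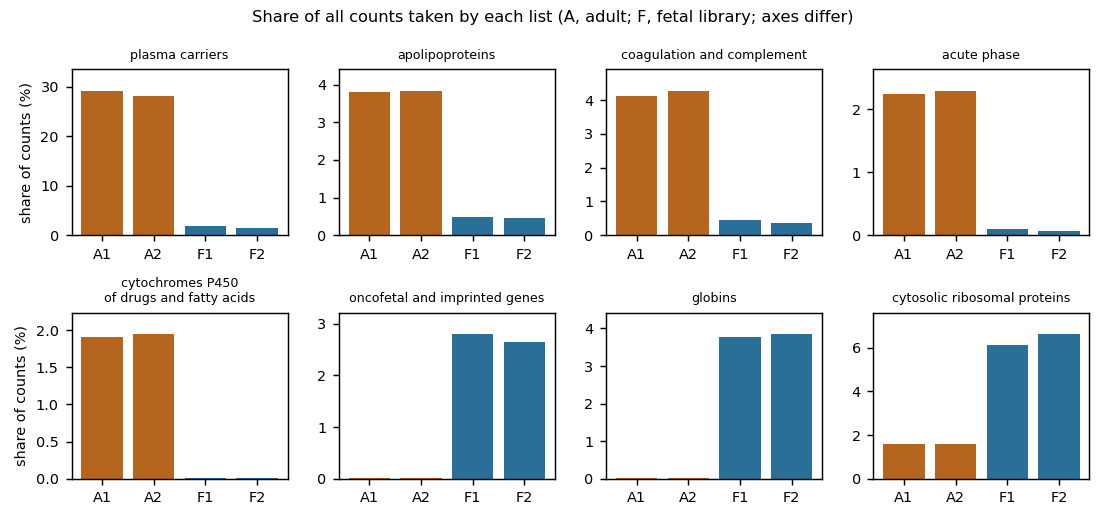
Share of all counts, in percent, taken by 8 gene lists in each adult (A1, A2) and fetal (F1, F2) library, with axes that start at 0 and differ between panels. The first 5 lists are larger in both adult libraries, led by plasma carriers at 29.1% and 28.0%, and the last 3 are larger in both fetal libraries, led by ribosomal proteins at 6.12% and 6.60%.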

How the data were processed

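The authors isolated total RNA, sequenced it as 150-base read pairs and deposited raw counts per gene, a whole-number table of 28022 genes. The submitters' processing notes name Trimmomatic 0.36, HISAT2, Cufflinks, HTSeq and mm10 (GRCm38). Library strandedness and the treatment of reads shared by several genes are not given in the sources used here, so values of named genes whose exons overlap another gene of the table (such as *Alas2*, *Cp*, *Mcm7*, *Nr1i3*, *Pklr*, *Tk1* and *Xist*) are uncertain. Groups came from the sample titles. The counts of the 4 liver libraries were fitted in edgeR 4.0.16 (R 4.3.3, limma 3.58.1) with TMM factors and the quasi-likelihood test, with Benjamini-Hochberg adjustment over 14842 genes whose log2(count + 1) averaged 3 or more, and called at an adjusted p under 0.05. The common biological coefficient of variation was 7.93%. Total counts ranged from 25364702 to 35022256, and with 2 libraries a group the precision is limited by their number. Where 1 group had at most 3 counts a library but not 0 in all, a ratio of counts with an exact 95% interval is given, which covers counting error only. Levels per kilobase used exon lengths of GENCODE annotation, found for 27619 genes. Promoters were read from RefSeq (GRCm38.p6) and matched by symbol. The fit was also run on simulated data in which few genes changed, up or down at random. Such data cannot decide how the scaling behaves here, and no conclusion is drawn from them. Named genes were taken from 40 lists of 718 genes and 16 pairs, with the members of the largest change, the highest level or the opposite direction, beside the 10 genes with the largest change each way and the 10 most abundant. The comparison and the lists were chosen with earlier results of these data known, and 4 further lists after their values were seen. Some genes of the lists and pairs are not reported here. DESeq2 1.42.0, other scalings and filters, a replicate block and fits without 1 library were alternatives.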

Additional observations from a re-analysis of the deposited data

How the results depend on the processing

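The counts of 5934 genes higher and 6399 lower moved by more than 1.5 times under 3 alternatives. They were 2536 and 10970 with total counts only, 1714 and 12377 when scaled to the hepatocyte transcription factors, and 3536 and 3510 in a test against a log2 fold change of 1. The median log2 fold change moved by -1.43 and -2.27 under the first and second of these. Leaving out 1 library gave 5415 to 6191 genes higher and 5809 to 6517 lower. Each of these fits has 1 library in a group, assumed to vary like the other group, so the spread comes from the remaining pair alone, and the counts were higher when it came from the adult pair. Library numbers were not said to pair the tissues, and deviations of same-numbered libraries correlated at 0.0475 over genes. The fit with a replicate block gave 6041 genes higher and 6553 lower. Of the 181 called genes named in the text, 179 to 181 were called with the same sign in each fit without 1 library and 181 with the block, and *Ezh1* was also called with it (edgeR adjusted p = 0.0392).

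Without adult library 1 or 2, *Tk1* (edgeR adjusted p = 0.0503 and 0.0843) and *Xist* (0.0961 and 0.159) were not called. Of genes not called with all libraries, with the spread from the adult pair alone, *Gata4* was called without fetal library 2 (0.00209), *Ezh1* without fetal library 1 (0.00203), and *Ldha* without either fetal library (0.00212 and 0.000115). In the DESeq2 Wald test *Tk1* (DESeq2 adjusted p = 0.099) and *Xist* (0.0893) were not called and *Ldha* was (0.0108). With DESeq2 size factors in edgeR, *Ezh1* (0.0246) and *Ldha* (0.0199) were called. With all 14 libraries *Lgr5* was not called (edgeR adjusted p = 0.189), while *Ldha* (0.0401) and *Ezh1* (0.0133) were.

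With total counts, log2 fold changes turned to -0.04 for *Adgre1*, -1.23 for *Ezh1*, -1.32 for *Gata4*, -1.27 for *Ldha*, -0.18 for *Nat2*, -1.05 for *Pklr* and -0.92 for *Xist*, and *Aqp1* at 0.06 was not called (edgeR adjusted p = 0.573). Scaled to the transcription factors, they turned to -0.88 for *Adgre1*, -0.78 for *Aqp1*, -0.37 for *Cd59a*, -0.47 for *Csf1r*, -2.07 for *Ezh1*, -2.16 for *Gata4*, -0.27 for *Hlf*, -0.31 for *Hmgcs1*, -2.11 for *Ldha*, -1.02 for *Nat2*, -1.88 for *Pklr* and -1.76 for *Xist*. With upper quartile factors they turned to -0.04 for *Ezh1*, -0.12 for *Gata4* and -0.07 for *Ldha*, and *Pklr* (0.15) and *Xist* (0.28) were not called. *Krt19*, not called on the TMM scale, was called lower at -0.43 with upper quartile factors, -1.62 with total counts and -2.46 with the transcription factor scaling. With 2 libraries a group, and adult liver at 0 to 3 counts for many fetal genes, small differences and the size of the largest ones are limited in precision.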

Other observations

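Hepatocytes near the central vein and near the portal vein hold different enzymes in adult liver. Of 18 periportal genes, all were higher in adult liver, with a median log2 fold change of 7.93, and of 17 pericentral genes 12 were higher and 3 lower, with a median of 2.60. With total counts the periportal list had 16 higher and 2 lower and the pericentral list 10 and 7, and scaled to the transcription factors 15 and 2 against 10 and 7, with medians of 5.66 and 0.33. *Cyp2f2*, a periportal cytochrome, had 17470 and 17762 counts in adult liver against 2 and 1. The periportal histidine ammonia-lyase gene *Hal* was 311-fold higher. The pericentral glutamate transporter *Slc1a2* had 5259 and 5655 counts against 59 and 56 and was 199-fold higher. *Lgr5* and *Znrf3*, part of the Wnt pathway that marks the pericentral zone, were 1.98-fold and 1.81-fold lower, and *Lgr5* was not called in the fit of all 14 libraries (edgeR adjusted p = 0.189).

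Of 15 tested genes of the circadian clock, 14 were higher and 1 was lower, with a median of 2.83, against 11 and 3 with total counts and 8 and 5, with a median of 0.56, when scaled to the transcription factors. *Dbp*, an output factor of the clock, had 3219 and 3356 counts against 55 and 52 and was 129-fold higher. *Arntl*, the core activator that oscillates in opposite phase to *Dbp*, was 5.79-fold lower. The hour of collection is not given, so the hour and the age cannot be told apart. Of 14 immediate early and heat shock genes, which respond to handling of tissue, 7 were higher and 3 lower with a median of 0.36, and 1 was higher and 12 lower with a median of -1.91 when scaled to the transcription factors. *Myc*, a factor of growth, was 5.60-fold lower.

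Of 8 tested genes of pancreas and gut, 3 were higher in adult liver, 4 were lower and 1 was not called, and their summed level was 5.54-fold higher in adult liver. *Fabp2*, a fatty acid-binding protein of gut, was 23.5-fold and the elastase gene *Cela1* 7.02-fold higher. The pancreatic carboxypeptidase gene *Cpa1* had 318 and 267 counts and the glucagon gene *Gcg* 71 and 104, and neither had a count in adult liver. The skeletal actin gene *Acta1* had 376 and 711 fetal counts, and *Sox10* of the neural crest had 77 and 91. Their part in the other results was not tested. *Car3*, a carbonic anhydrase of fat and muscle that hepatocytes also express, was 75.7-fold higher in adult liver. Of 18 tested histone genes of clusters 1 and 2, a list chosen after its values were seen, 5 were higher and 5 lower with a median of -0.03, and 1 was higher and 14 lower when scaled to the transcription factors.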
